A study of Drosophila melanogaster with 81 samples.

Results

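The genes described are the 6 histone variant and replacement histone genes of Drosophila melanogaster that lie outside the replication-dependent histone gene cluster: His2Av, His3.3A, His3.3B, His4r, BigH1 and cid. They were chosen by name and are 6 of the 13946 protein-coding genes of the annotation. For each gene, the bp covered by deposited CUT&Tag peaks were measured in the gene span (the annotated gene from end to end) with 2000 bp on each side, here called the window, and 206 peaks fell in these windows.

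CUT&Tag cuts and tags DNA where an antibody has bound a histone mark, and a peak is a stretch where such fragments pile up. Whole embryos of 2 genotypes were compared. The control was w1118. The mutant, called HisC in the labels, carried the deficiency Df(2L)HisC on both second chromosomes, together with the transgenes P{GAL4-twi.2xPE} and P{UAS:eYFP}AH2, and mutants were picked by eYFP. The labels of the H3K27me3 libraries of HisC at 4.5 to 5 h name only the deficiency. The w1118 embryos carried neither transgene, so the deficiency, the transgenes, the genetic background and the picking cannot be told apart. Eggs were laid for 30 min at 25 °C and aged until 4.5 to 5 h or 5.5 to 6 h from laying for H3K4me3, H3K27ac, H2AK9ac, H2BK16ac, H3K36me3 and H3K27me3, and also to 3.5 to 4 h for H3K4me3. That gives 26 groups with a peak list, 13 per genotype, made from 59 libraries of the 81 in the series. Embryos are mixtures of cell types, so fewer cells with a mark and less of it per cell cannot be told apart.

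The deficiency removes the tandem array that encodes the canonical H1, H2A, H2B, H3 and H4 proteins, which are made in S phase and packed behind the replication fork. Variants are encoded elsewhere by genes that are expressed outside S phase as well, with introns and polyadenylated transcripts in most cases, and they enter chromatin through their own chaperones. Embryos lacking the array start development on histones supplied by the mother, and the variant genes are then among the histone genes they still hold. H3K4me3 and H3K27ac typically mark starts of active genes, H3K36me3 the bodies of transcribed genes and H3K27me3 genes repressed by Polycomb.

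Each list is 1 pooled list of positions for a group of 2 or 3 libraries, with no height, score or replicate values. Differences between genotypes therefore have no replicate check, no spread and no p-value, and are given as bp and folds. Lists held 4588 to 13436 peaks covering 5.47 to 13.7 Mb. For H3K4me3, H3K27ac, H3K36me3 and H3K27me3 the HisC lists held more and narrower peaks than the w1118 lists at each time. The median H3K4me3 width was 464 to 675 bp in HisC and 874 to 927 bp in w1118. The H3K27ac medians were closer, 554 and 676 bp in HisC against 584 and 796 bp in w1118. The part of these differences between whole lists in the values of single genes was not tested. A gene and mark pair was called lower or higher in HisC when the window differed at least 1.5-fold and by at least 200 bp in 1 direction at both 4.5 to 5 h and 5.5 to 6 h.

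All 6 windows, which include parts of neighbouring genes, held H3K4me3 in all 6 H3K4me3 lists and H3K36me3 in all 4 lists of that mark. Within the gene span, 3 to 5 of the 6 genes had H3K4me3 per list, beside 42.5% to 48.1% of all genes. For H3K36me3 it was 3 to 4 of the 6, beside 46.4% to 49.6%. Of all protein-coding genes, 52.3% had H3K4me3 in the window in all 6 lists and 47.5% had both marks in all 10 lists. The median share of the window under H3K4me3 at 4.5 to 5 h was 31.0% over the 6 genes in w1118 and 39.1% in HisC. Over all genes it was 5.75% and 7.64%, and over those of at most 5 kb, as all 6 are, 8.22% and 9.65%. Over the 25 genes for histone chaperones, exchange and storage described below, it was 23.7% in w1118. Their HisC value likewise lay between those of the short genes and of the 6 genes. A share well above that of all genes was thus not particular to the 6 genes. H3K27me3 covered little of the 6 windows, and its median over all genes was 0 bp in each list. In 4 of the 6 windows it was in none of the lists, as in 50.4% of all genes, and the other 2 windows held 216 bp (His2Av) and 166 bp (His3.3A) at their edge in HisC at 5.5 to 6 h. That list thus had a peak in 2 of the 6 windows, beside 38.9% of all genes. The remaining H3K27me3 lists had no peak in any of the 6 windows. Of all genes, 40.5% had one in HisC at 4.5 to 5 h, and 17.5% and 16.5% in w1118 at the 2 times.

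With H3K27me3 left aside, all 30 pairs of a gene and a mark had a peak in at least 1 of the 4 later lists, and 2 were called lower and 4 higher in HisC. That is 6.67% lower and 13.3% higher, beside 13.4% lower and 12.9% higher over all such pairs of a protein-coding gene and a mark. With 2000 bp on each side, the share of higher calls was thus near the background and that of lower calls below it. The latter rests on 2 pairs and depends on the flank, since 5, 4 and 6 pairs were lower with 0, 500 and 1000 bp. With 2000 bp, the pairs called lower were H3K36me3 at cid and H2AK9ac at BigH1. The pairs called higher were H3K4me3 at His3.3A, H3K27ac at cid, and H2AK9ac and H2BK16ac at His3.3B. All 4 higher calls and that of H2AK9ac at BigH1 were lost with 0 or 500 bp on each side in place of 2000 bp, and the call of H3K36me3 at cid was lost with 5000 bp. At 2-fold only H2AK9ac at BigH1 was still called. At 4.5 to 5 h alone, 5 of the 30 pairs were lower and 10 higher, beside 28.1% and 32.1% over all pairs. At 5.5 to 6 h alone, 9 were lower and 10 higher, beside 33.5% and 27.8%. The plot of covered bp by gene and mark shows these values list by list.

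**Figure D1:**
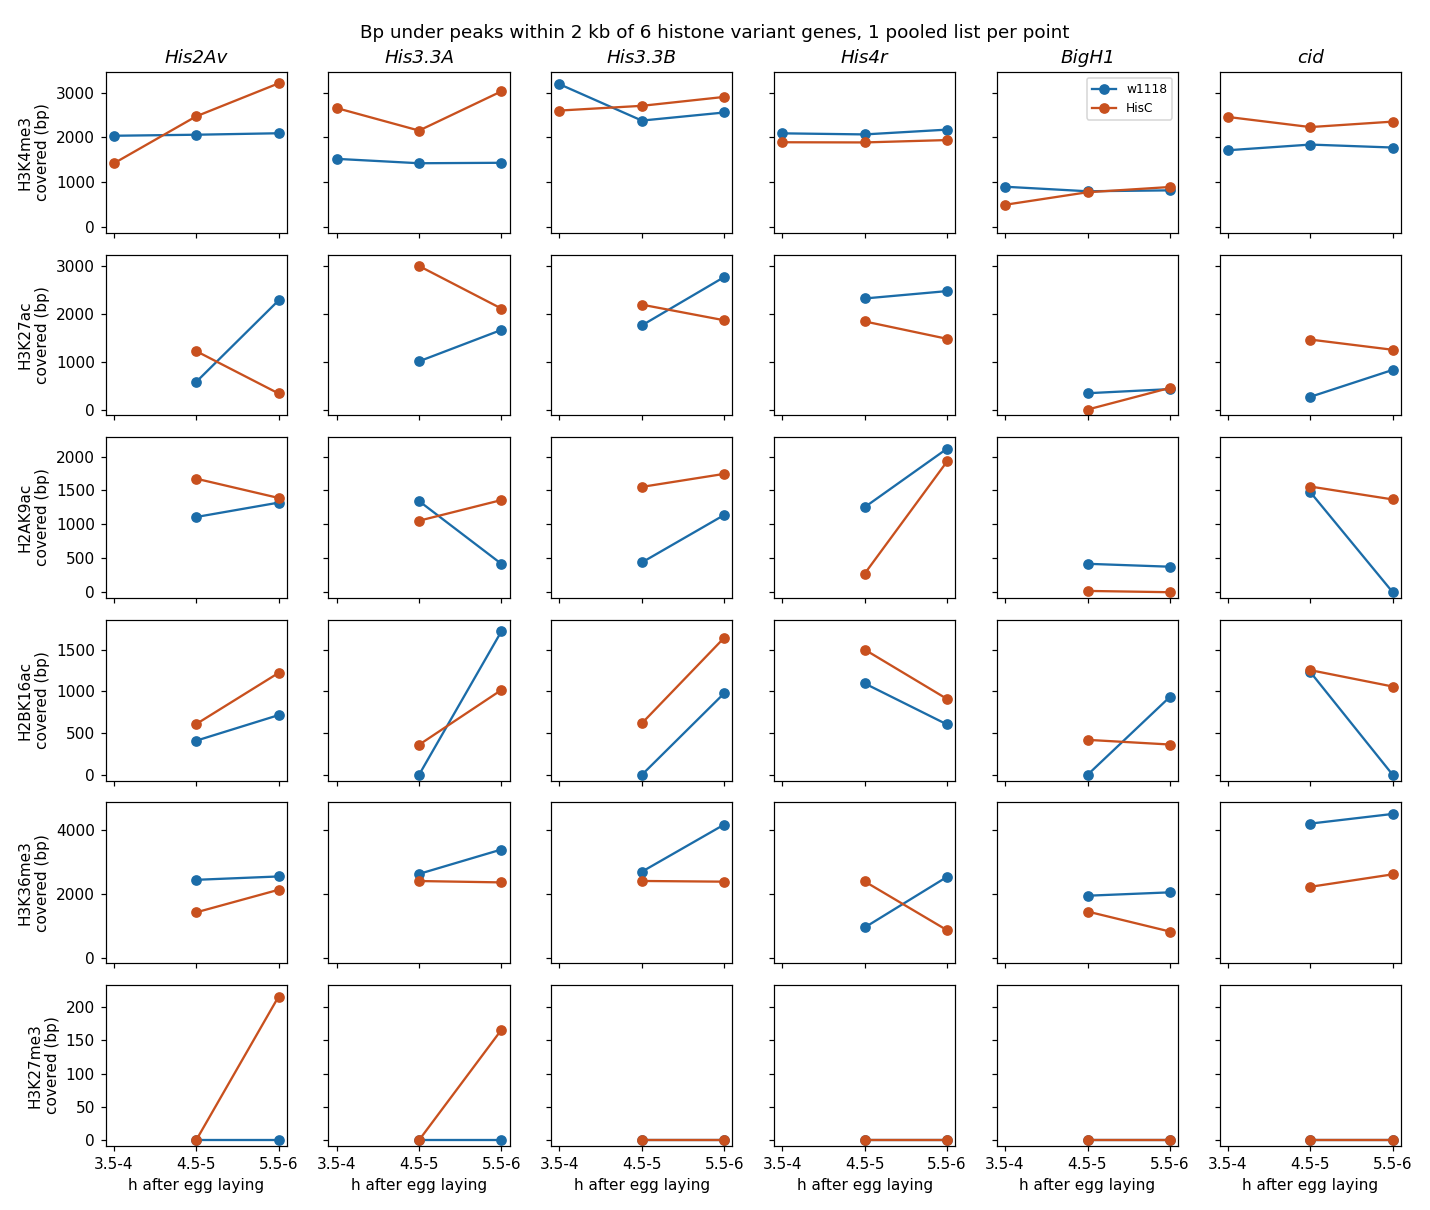
Bp covered by peaks in the gene span with 2000 bp on each side (y axis, 1 scale per mark) against the time after egg laying in h (x axis), for 6 genes (columns) and 6 marks (rows); each point is 1 pooled list, so there are no error bars. H3K4me3 lines of w1118 are nearly flat between 4.5 to 5 h and 5.5 to 6 h at every gene, H2AK9ac and H2BK16ac lines of w1118 swing between 0 and 2117 bp, and cid has the 2 highest H3K36me3 points, 4213 and 4517 bp in w1118.

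His2Av encodes the single H2A variant of Drosophila, which does the work of both H2A.Z and H2A.X in other animals. It lies at chr3R:26866929-26869220 (dm6), 121 bp from ball, which encodes a nucleosomal histone kinase, and 17 bp from SPARC, which encodes a basement membrane protein. In w1118, H3K4me3 covered 2037 bp at 3.5 to 4 h, 2060 bp at 4.5 to 5 h and 2093 bp at 5.5 to 6 h, each time as 1 peak from the gene into ball. In HisC it covered 1420, 2471 and 3208 bp at the same times. The HisC list of 3.5 to 4 h stood apart in position: it had no peak at the end of His2Av next to ball, and it shared 0 bp with the w1118 list, while the later HisC lists shared 1738 and 1914 bp with theirs. That HisC list is named as having something excluded, and what was excluded is not stated in the sources.

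Beside His2Av, SPARC had H3K4me3 in the window in all 3 HisC lists (1259, 542 and 959 bp) and in none of the 3 w1118 lists. H3K27ac at His2Av was 577 and 2279 bp in w1118 against 1220 and 336 bp in HisC, higher in HisC at the first time and lower at the second, opposite calls of a kind made for 5.09% of genes with the mark. H3K36me3 was 2444 and 2550 bp in w1118 against 1421 and 2131 bp in HisC, most of it over ball and SPARC. Only HisC at 5.5 to 6 h had H3K36me3 within His2Av itself, 131 bp. H2AK9ac was 1109 and 1321 bp in w1118 against 1674 and 1390 bp in HisC, and H2BK16ac was 409 and 715 bp against 608 and 1220 bp. No list of H2AK9ac or H2BK16ac had a peak within the His2Av span.

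His3.3A and His3.3B encode the same replacement histone, H3.3, which is deposited outside replication at active genes and in the male pronucleus. His3.3A lies at chr2L:5055058-5056149 and overlaps the end of Nepl3, a neprilysin-like gene, by 168 bp. Its other neighbours are CG14036 at 41 bp, senju, which encodes a nucleotide-sugar transporter, at 482 bp, and eIF3h, a translation initiation factor subunit, at 1963 bp. H3K4me3 covered 1521, 1423 and 1433 bp in w1118 against 2656, 2153 and 3030 bp in HisC from the earliest to the latest time. All 3 HisC values lie above all 3 w1118 values, by 1.51-fold at 4.5 to 5 h and 2.11-fold at 5.5 to 6 h, a call made for 15.9% of genes with H3K4me3. The surplus lay beside the gene. Within the span the lists were close at the later times, with 827 and 840 bp in w1118 against 690 and 852 bp in HisC, and 690 bp of the gene were under H3K4me3 in all 6 lists. Over Nepl3, H3K4me3 was 0 bp in every w1118 list and 1524, 368 and 950 bp in HisC.

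H3K27ac at His3.3A was 1007 and 1663 bp in w1118 against 2997 and 2108 bp in HisC, 2.98-fold and 1.27-fold higher, which is past 1.5-fold at 1 time only. The difference lay largely over Nepl3 again, with 159 and 230 bp in w1118 against 1537 and 809 bp in HisC. H3K36me3 was 2630 and 3398 bp in w1118 against 2406 and 2363 bp in HisC, below 1.5-fold at both times, and 2123 bp were covered in all 4 lists. H2AK9ac was 1344 and 418 bp in w1118 against 1054 and 1359 bp in HisC. H2BK16ac was 0 and 1718 bp in w1118 against 360 and 1016 bp in HisC, opposite calls at the 2 times, as in 18.4% of genes with that mark. Both of these acetylations differed about as much or more between the times of w1118 as between genotypes.

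His3.3B, the other H3.3 gene, is the longest of the 6, at chrX:9152523-9156669. Bap111, which encodes a subunit of the Brahma remodelling complexes, lies 546 bp below it, Ost48, a subunit of oligosaccharyltransferase, 259 bp above it, and Dlip1 1952 bp above it. In the window, H3K4me3 was 3189, 2376 and 2557 bp in w1118 against 2600, 2706 and 2905 bp in HisC, with overlapping ranges. Within the gene it was 1189, 665 and 891 bp in w1118 and 0 bp in all 3 HisC lists. Of the 5745 protein-coding genes with H3K4me3 within the span in all 3 w1118 lists, 2.65% had none there in all 3 HisC lists, and His3.3B is one of these. In HisC, the H3K4me3 in the window lay over the neighbours. Over Bap111 it was 0 bp in every w1118 list and 1235, 1190 and 1236 bp in HisC, and over Ost48 it was 1462 to 1587 bp in w1118 and 1365 to 1515 bp in HisC.

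H3K27ac at His3.3B had the same shape. Within the gene it was 1384 and 1853 bp in w1118 against 0 and 332 bp in HisC. Over Bap111 it was 0 and 0 bp in w1118 against 1153 and 581 bp in HisC. The windows as a whole were closer, with 1757 and 2767 bp in w1118 against 2190 and 1864 bp in HisC. The map of peaks around His2Av, His3.3A and His3.3B shows these positions.

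**Figure D2:**
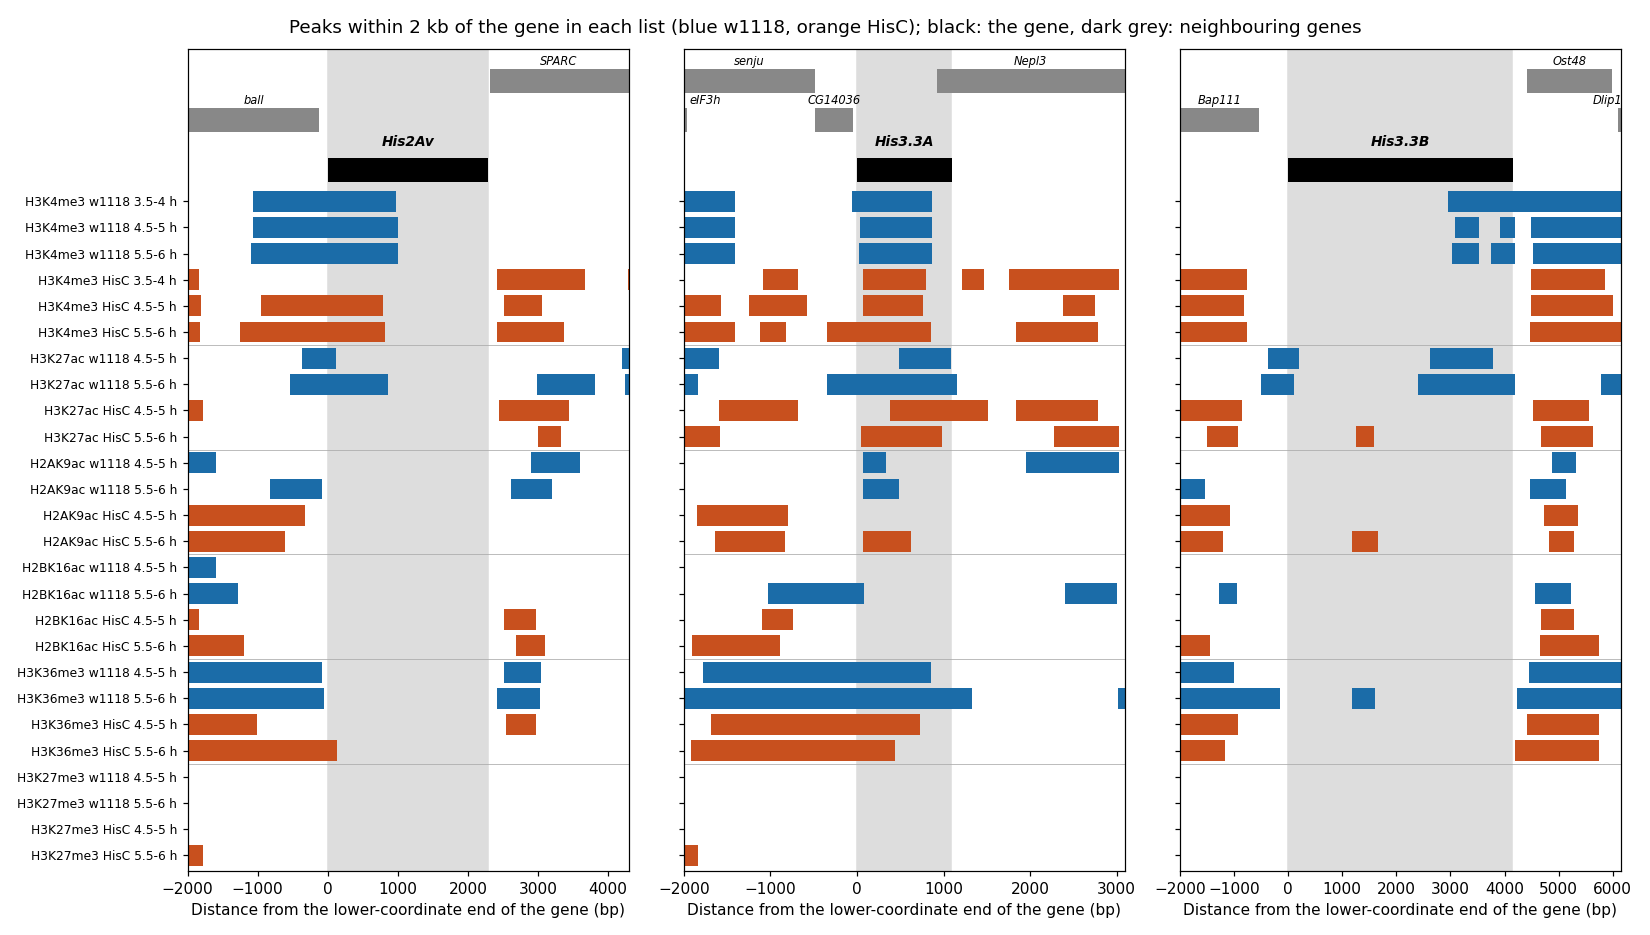
Peaks (bars) within 2 kb of His2Av, His3.3A and His3.3B, 1 row per list, against the distance from the lower-coordinate end of the gene in bp; black is the gene, dark grey its neighbours, and the light grey band the gene span. At His3.3B the H3K4me3 rows of w1118 have peaks in the band (665 to 1189 bp), whereas the HisC rows have none there and a peak over Bap111.

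H2AK9ac at His3.3B was 439 and 1139 bp in w1118 against 1553 and 1745 bp in HisC, 3.54-fold and 1.53-fold higher, a call made for 10.9% of genes with this mark. H2BK16ac was 0 and 977 bp in w1118 against 617 and 1641 bp in HisC, also called higher, as were 14.7% of genes with it. Both marks lay mainly over Bap111 and Ost48. Within the gene only HisC at 5.5 to 6 h had a peak of either, 478 bp of H2AK9ac. H3K36me3 was 2699 and 4183 bp in w1118 against 2408 and 2386 bp in HisC, lower by 1.12-fold and 1.75-fold.

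His4r encodes an H4 protein with the canonical sequence from a single gene with introns. It lies at chr3R:14625755-14626614, 51 bp from put, which encodes a type II receptor of the activin and BMP family, and 61 bp from CG7886. Its H3K4me3 was the most alike between genotypes among the genes with H3K4me3 inside them. It covered 2091, 2067 and 2174 bp in w1118 against 1892, 1888 and 1941 bp in HisC, and the lists of the genotypes shared 86.4%, 91.3% and 89.3% of their united bp at the 3 times. Over the whole lists, that share was 31.0%, 46.6% and 49.9%. The peak ran from put into the gene, with 687 and 740 bp of the gene covered in HisC at the later times and 761 and 814 bp in w1118.

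H3K27ac at His4r was 2319 and 2473 bp in w1118 against 1840 and 1477 bp in HisC. Within the gene it was 580 and 686 bp in w1118 against 0 and 185 bp in HisC, so most of the HisC peak lay over put. H3K36me3 was 945 and 2538 bp in w1118 against 2393 and 859 bp in HisC, higher in HisC by 2.53-fold at the first time and lower by 2.95-fold at the second, opposite calls as in 4.34% of genes with the mark. H2AK9ac was 1254 and 2117 bp in w1118 against 274 and 1928 bp in HisC, and H2BK16ac was 1094 and 603 bp against 1499 and 908 bp. Neither was called at both times.

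BigH1 encodes the embryonic linker histone, which is loaded into the egg and takes the place of H1 until the zygotic genome is activated. It lies at chr3R:14663450-14664822, near His4r on the same arm, between Rad17, which encodes a checkpoint clamp loader, at 252 bp and Meltrin, a metalloprotease gene, at 84 bp. No peak of any of the 6 marks fell within the BigH1 span in any of the 26 lists. This was true of 10.9% of all protein-coding genes, of 7.99% of those with a peak in the window in at least 1 list, and of 2.66% of those with H3K4me3 in the window in all 6 lists. The other 5 genes each had peaks within the span in both genotypes. A gene without a peak may still carry a mark below the threshold of the peak caller, which is not known.

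The H3K4me3 in the BigH1 window lay over Rad17, with all peaks within chr3R:14662298-14663202. It covered 898, 797 and 817 bp in w1118 against 495, 775 and 892 bp in HisC, and 495 bp were shared by all 6 lists. H3K36me3 covered 1944 and 2050 bp in w1118 against 1447 and 817 bp in HisC. Over Rad17 alone it was 1524 and 1576 bp in w1118 against 630 and 0 bp in HisC. Over Meltrin it went the other way, with 420 and 474 bp in w1118 against 817 and 817 bp in HisC. H2AK9ac, called lower, was 419 and 376 bp in w1118 against 19 and 0 bp in HisC, as were 11.4% of genes with that mark. The w1118 peaks lay over Rad17. H3K27ac was 341 and 427 bp in w1118 against 0 and 452 bp in HisC, and H2BK16ac was 0 and 933 bp against 419 and 363 bp.

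cid encodes the centromeric H3 variant, known as CENP-A in other animals, which marks the site where the kinetochore forms. It lies at chr2R:13485617-13486631, 225 bp from cbc, which encodes an RNA kinase, and 2 bp from bbc, a phospholipid synthesis gene. H3K36me3 covered 4213 and 4517 bp of the window in w1118, as 1 peak over cid and parts of both neighbours, the largest values of this mark among the 6 genes. In HisC it covered 2224 and 2617 bp, 1.89-fold and 1.73-fold less. Within the gene the mark covered all 1015 bp in both w1118 lists and 7 and 617 bp in HisC. Over bbc it was 1196 and 1500 bp in w1118 against 539 and 0 bp in HisC, and over cbc 1775 and 1775 bp in w1118 against 1453 and 1775 bp in HisC. A lower H3K36me3 call was made for 21.0% of genes with the mark, and the median width of H3K36me3 peaks over the whole lists was 1544 and 2163 bp in w1118 against 1093 and 1053 bp in HisC. The part of that difference in the values of cid was not tested.

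H3K4me3 at cid did not follow H3K36me3. It covered 1713, 1840 and 1774 bp in w1118 against 2457, 2231 and 2353 bp in HisC, every HisC value above every w1118 value but under 1.5-fold at both later times. The peak kept its boundary inside cid, with 728, 772 and 784 bp of the gene in w1118 against 699, 699 and 728 bp in HisC, and reached farther over cbc in HisC, where it covered 1340, 1307 and 1400 bp against 760, 843 and 765 bp. H3K27ac was 266 and 828 bp in w1118 against 1461 and 1248 bp in HisC, 5.49-fold and 1.51-fold higher, a call made for 13.4% of genes with the mark. This too lay over cbc, with 24 and 197 bp in w1118 against 1221 and 1008 bp in HisC. Within cid itself it was 17 and 406 bp in w1118 against 15 bp in each HisC list, so lower in HisC at 5.5 to 6 h. H2AK9ac was 1475 and 0 bp in w1118 against 1558 and 1368 bp in HisC, and H2BK16ac was 1230 and 0 bp against 1253 and 1057 bp. For both acetylations the w1118 list of 5.5 to 6 h is the low one, and the other 3 lists are near each other in covered bp. Their positions differed for both marks. H2AK9ac over bbc was 856 bp in w1118 and 617 bp in HisC at 4.5 to 5 h, and 0 bp in HisC at 5.5 to 6 h. Within cid, H2BK16ac covered all 1015 bp in w1118 and 543 bp in HisC at 4.5 to 5 h, and 0 bp in HisC at 5.5 to 6 h.

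**Figure D3:**
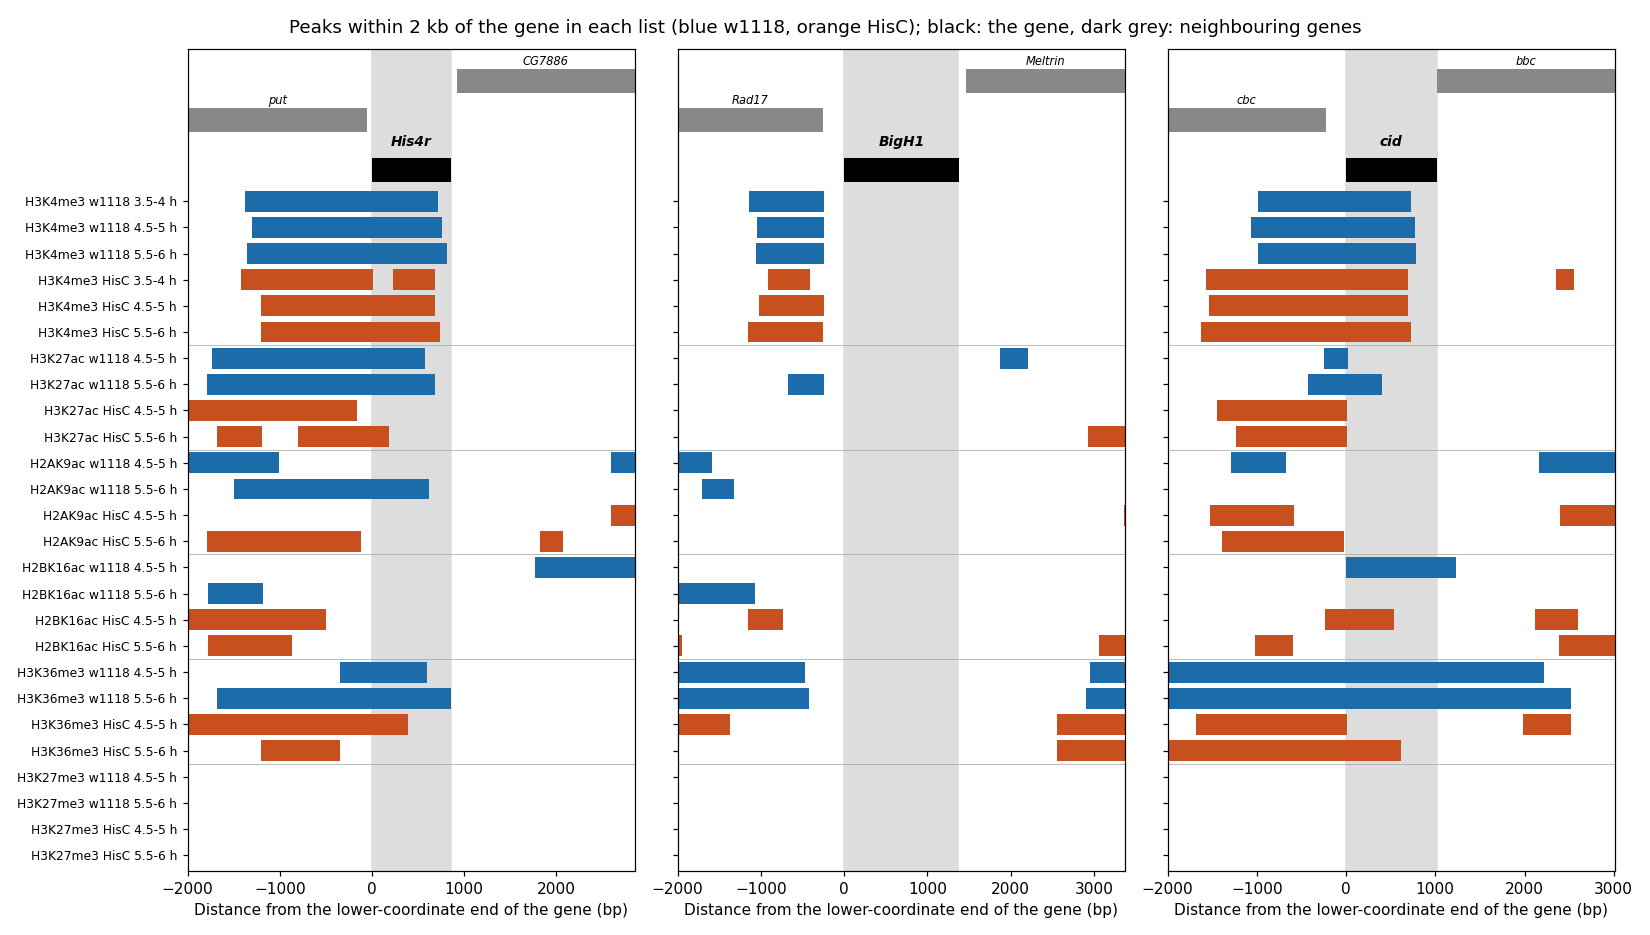
Peaks (bars) within 2 kb of His4r, BigH1 and cid, 1 row per list, against the distance from the lower-coordinate end of the gene in bp; black is the gene, dark grey its neighbours, and the light grey band the gene span. The band of BigH1 is empty in all 26 rows, and the H3K36me3 rows of cid fill the band in w1118 (1015 bp in both lists) but not in HisC (7 and 617 bp).

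In several windows the peaks of HisC lay beside the gene where those of w1118 lay in it, and this was followed up after the values had been seen. Summed over the 13 lists of each genotype, peaks covered 28674 bp within the 6 genes in w1118 and 13984 bp in HisC, 2.05-fold less. In the 2000 bp on each side they covered 74091 bp in w1118 and 90019 bp in HisC, 1.21-fold more, so the windows as a whole were nearly equal at 102765 and 104003 bp. The share of covered bp that fell within the gene was 27.9% in w1118 and 13.4% in HisC. Over all protein-coding genes the same share was 53.4% and 57.8%, over those of at most 5 kb 38.0% and 41.5%. A peak within the gene was present in 37 of 78 pairs of a gene and a list in w1118 and in 26 of 78 in HisC. These pairs hold the same 6 genes 13 times, so they are not separate units. Per list without H3K27me3, 41.7% to 51.6% of all genes had a peak in the span in w1118 and 38.4% to 51.9% in HisC. For H3K27me3 it was 12.3% to 13.1% in w1118 and 27.1% to 27.8% in HisC.

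His3.3B had the largest difference in this sum, with 6405 bp within the gene in w1118 and 810 bp in HisC, 7.91-fold less. His4r had 5636 and 2476 bp, His2Av 3943 and 1743 bp, and cid 5752 and 3323 bp, which are 2.28-fold, 2.26-fold and 1.73-fold less. His3.3A was closest, with 6938 and 5632 bp, or 1.23-fold less, and BigH1 had 0 bp in both. Thus 4 of the 5 genes with a peak in the span were lower by at least 1.5-fold and 200 bp and none was higher. Over all genes with a peak in the span 27.2% were lower and 25.4% higher, and over those of at most 5 kb 30.9% and 25.8%. Flanks went the other way for 5 genes, from 1.03-fold more in HisC at His4r to 1.67-fold more at His3.3A, and were smaller in HisC only at BigH1 (9002 and 5679 bp).

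**Figure D4:**
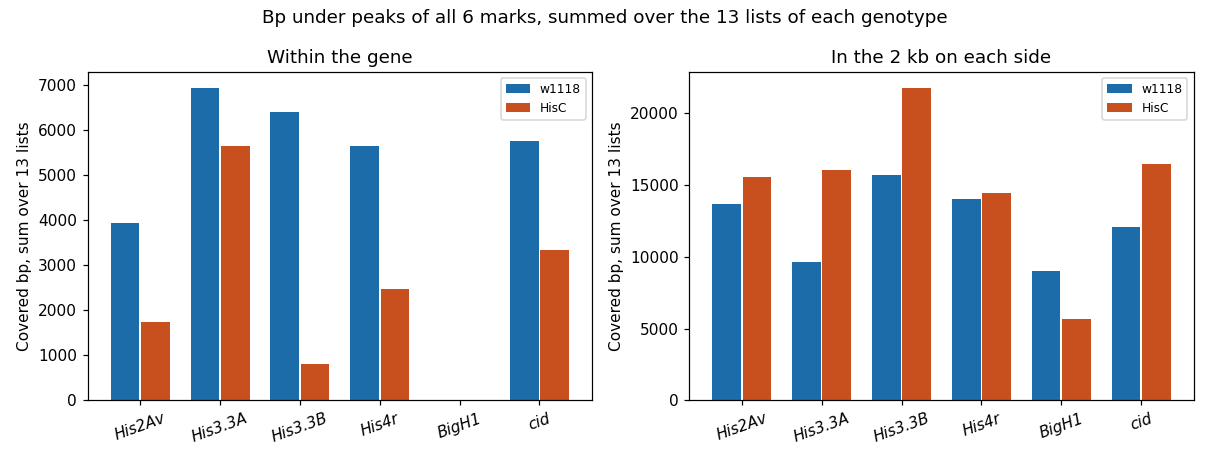
Bp covered by peaks of all 6 marks, summed over the 13 lists of each genotype, within each gene (left) and in the 2 kb on each side (right); bars are single sums with no error. Within the gene w1118 bars are taller at 5 genes, most at His3.3B (6405 against 810 bp), and beside the gene HisC bars are taller at 5 genes, BigH1 being the exception.

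With the gene span alone and each mark on its own, 5 of the 20 pairs with a peak were lower in HisC at both times and 0 were higher, that is 25.0% and 0%. Over all genes and the 5 marks other than H3K27me3, 12.3% of such pairs were lower and 15.3% higher. The 5 pairs were H3K4me3 and H3K27ac at His3.3B, H3K27ac and H3K36me3 at His4r, and H3K36me3 at cid. For H3K36me3 at His4r the values within the gene were 601 and 855 bp in w1118 against 393 and 0 bp in HisC. By mark, the share of covered bp within the 6 genes was 39.0% in w1118 and 20.7% in HisC for H3K4me3, 45.4% and 12.8% for H3K27ac, and 17.2% and 9.87% for H3K36me3. All protein-coding genes went from 42.4% to 48.6%, from 47.7% to 58.0% and from 48.9% to 53.7% for these marks. Those of at most 5 kb, as all 6 genes are, went from 36.8% to 39.8%, from 30.0% to 40.9% and from 39.8% to 41.0%. Their median share per gene hardly moved, from 34.3% to 34.1%, from 23.4% to 25.0% and from 31.9% to 31.4%. That median over the 6 genes went from 39.5% to 25.8%, from 36.3% to 3.34% and from 14.7% to 7.89%. Annotated starts and strands were not used here, so whether a peak lay at a start of the variant gene or of its neighbour was not resolved.

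Between 4.5 to 5 h and 5.5 to 6 h, H3K4me3 of none of the 6 genes differed by 1.5-fold in either genotype. Over all genes with the mark, 2.58% were lower and 5.07% higher at the later time in w1118, and 9.65% and 23.9% in HisC. From 3.5 to 4 h to 4.5 to 5 h the mark was higher at the later time at 2 of the 6 genes in HisC, 1.74-fold at His2Av and 1.57-fold at BigH1, and lower at 0, beside 20.7% and 20.4% of all genes. In w1118 none of the 6 differed by 1.5-fold between these times, beside 2.37% of all genes higher and 16.1% lower. The lists of the last 2 times shared 95.0% of united bp in the 6 windows in w1118 and 80.3% in HisC, beside 84.2% and 60.9% over the whole lists. Genotypes shared less, 63.0% at 4.5 to 5 h and 59.7% at 5.5 to 6 h. H3K36me3 shared 77.2% between times in w1118 and 58.2% in HisC, and 56.6% and 53.5% between genotypes. H3K27ac windows of the genotypes shared 18.0% and 23.0%, close to the 15.9% and 20.3% of whole lists.

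H2BK16ac and H2AK9ac shared the fewest bp between the 2 times of w1118 at these genes, as they did over the whole lists. In w1118, H2BK16ac of 4 genes was higher and of 2 genes lower at 5.5 to 6 h than at 4.5 to 5 h, and over all genes 45.3% were higher and 25.9% lower. The shared bp between the times of w1118 were 5.63% for H2BK16ac and 14.3% for H2AK9ac in the 6 windows, no more than the 10.3% to 22.9% and 24.0% to 26.9% shared between genotypes at 1 time. Whole lists of w1118 shared 22.3% and 23.8% between the times. In HisC the times shared 27.8% for H2BK16ac and 44.3% for H2AK9ac in the windows, the latter close to the 44.6% of H3K27ac. For these marks the lists of w1118 at its 2 times were thus no more alike at these genes than the lists of the 2 genotypes.

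**Figure D5:**
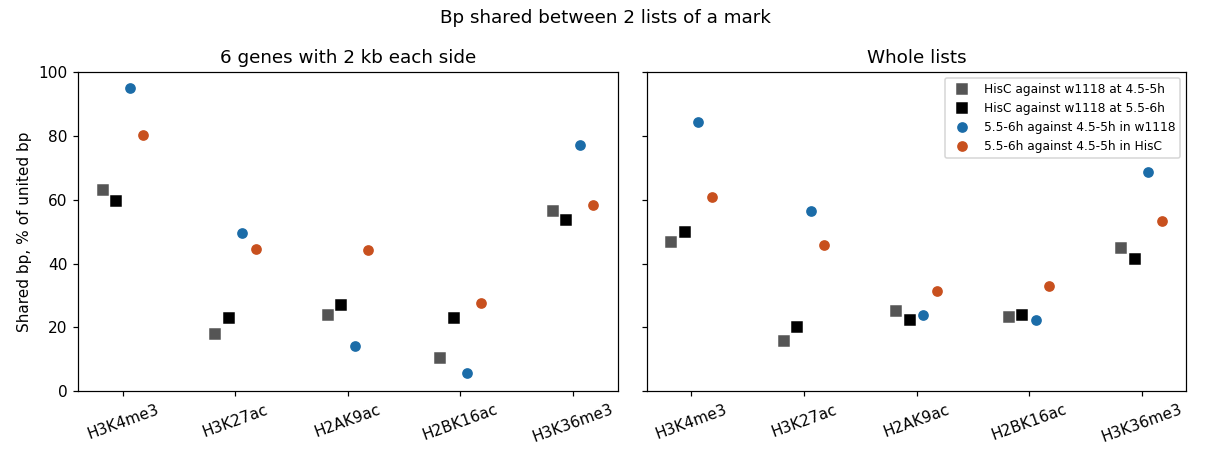
Shared bp as a percent of united bp (y axis, 0 to 100) between lists of 5 marks, in the windows of the 6 genes (left) and over whole lists (right); squares compare the genotypes at 1 time and circles compare times within 1 genotype, each from 1 pair of pooled lists. H3K4me3 circles are the highest (95.0% and 80.3% in the windows), and for H2BK16ac in the windows the w1118 circle (5.63%) lies below both squares.

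Likeness of 2 genes was measured as the mean absolute difference in the percent of the window covered over the 26 lists, where a smaller value is more alike. His2Av and His3.3B were the closest pair, at 5.83 percentage points, while His3.3A and His3.3B, which encode the same protein, were 9.56 points apart. BigH1 and cid were the farthest apart at 20.3 points. Outside the set, the genes most like His2Av were Atg2 (5.29 points) and phr (5.34), beside a median of 15.8 points over all genes. Those most like His3.3A were Pef (5.40) and Nemp (6.92), with a median of 22.3, and those most like His3.3B were Dd (3.55) and Cka (3.74). For His4r they were Rab7 (6.62) and SdhC (6.87), with a median of 22.2. For BigH1 they were hep in the first rank and MESR6 (3.51) in the second, with a median of 10.8, and for cid pck (5.83) and Polr3D (6.35), with a median of 22.9. The named genes have the smallest distances of all genes compared, so they lie below the median by selection. Whether any likeness is unusual was not tested.

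The 25 genes for histone chaperones, exchange and storage include some not particular to variants, such as subunits of CAF-1. They gave 119 gene and mark pairs with a peak of a mark other than H3K27me3. Of these, 11 were lower (9.24%) and 13 higher (10.9%) in HisC, both below the 13.4% and 12.9% of all pairs. H3K36me3 was lower at 5 of the 24 chaperone genes with the mark and higher at 0, beside 21.0% and 9.73% of all genes with the mark. Of these, yem, a partner of the H3.3 chaperone Hira, had 3548 and 5388 bp in w1118 against 1556 and 2480 bp in HisC. YL-1, an H2A variant chaperone of the Tip60 complex, had 3183 and 3590 bp against 1362 and 1561 bp. Gas41 and MRG15, subunits of the same complex, had 3067 and 2725 bp against 396 and 912 bp, and 2697 and 2339 bp against 499 and 1004 bp. CG12109, which encodes the large subunit of the replication chaperone CAF-1, was the remaining gene.

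Other marks at the chaperone genes went both ways. Of the 25 genes, 23 had H3K4me3 in at least 1 of the 4 later lists and 11 had H3K27me3. For H3K27ac, H2AK9ac and H2BK16ac it was 24 each. These are the numbers to set beside the shares of all genes with a mark. H3K4me3 was higher at 3 genes and lower at 0, beside 15.9% and 3.87% of genes with the mark. The 3 were dom, the ATPase that exchanges H2Av, dre4, a subunit of the H2A-H2B chaperone FACT, and YL-1. H3K27ac was higher at 3 (dom, dre4 and Ssrp, the FACT partner of dre4) and lower at 3 (Daxx, an H3.3 chaperone, yem and MRG15), beside 13.4% and 22.6%. H2AK9ac was higher at dom, dre4 and Gas41 and lower at MRG15 and Nasp, an H3-H4 chaperone, beside 10.9% and 11.4%. H2BK16ac was higher at Caf1-55, a histone-binding CAF-1 subunit, Nasp, the centromere protein gene Cenp-C and the nucleoplasmin-like gene Nlp, and lower at CG12109, beside 14.7% and 8.80%. H3K27me3 was higher at 3 of its 11 genes (dom, Cenp-C and Gas41), beside 41.2% of all genes with the mark. It was lower at 1, DMAP1, which encodes another Tip60 complex subunit, beside 11.2%. At dom the mark was absent in w1118. It was 0 bp at dom in both w1118 lists, 1650 bp in HisC at the first time and 2049 bp at the second. At DMAP1 it was 1084 and 860 bp in w1118 and 0 bp in both HisC lists.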

How the data were processed

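The deposited lists give peak positions (chromosome, start and end in bp, with no score), 1 list per group. By their names, the authors' H3K4me3 and H3K27ac lists hold narrow peaks, those of the other marks broad peaks, and blacklisted regions were removed. Bowtie2 2.3.4.2, SAMtools 1.9, Trim Galore 0.6.6, cutadapt 1.17, deepTools 3.3.1 and the build dm6 are named in the submitters' processing notes. Which peak caller and threshold made the lists, and how replicates entered them, is not given in the sources used here. Depth is unknown.

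Genes came from a RefSeq table of the same release as dm6, with start and end but no strand, transcripts or sequence. All 6 symbols matched it. Of 25 chaperone genes, 22 matched by symbol and 3 (Daxx, Cenp-C, Nasp) by synonym. Covered bp were counted in the gene span with 2000 bp on each side and called at 1.5-fold and 200 bp, with Python 3.11.15, numpy 2.4.6, pandas 2.3.3 and matplotlib 3.10.9. The background of a call is all protein-coding genes with a peak of that mark in at least 1 of the 4 lists. Scripts were tested on simulated data. The members and lists were chosen with earlier results of these data known. Named genes are all 6 members, up to 4 chaperone genes per mark and direction by the smaller of the differences at both times, the 2 most alike genes of each member, and neighbours in its window. CG12109 for H3K36me3 was named in addition, after its values were seen. Alternatives covered the flank, peak width, number of peaks, joining, midpoints, fold and time. The other 22 libraries, in 10 groups, were not analysed here.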

Additional observations from a re-analysis of the deposited data

Results flagged for a closer look

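At 4 gene and mark pairs the call at 4.5 to 5 h was opposite to that at 5.5 to 6 h, each time from 1 pooled list per genotype, so the difference between the times was not tested. H3K27ac at His2Av differed by 643 bp (HisC minus w1118) at the first time and by -1943 bp at the second. H3K36me3 at His4r differed by 1448 and -1679 bp. H2BK16ac differed by 360 and -702 bp at His3.3A and by 419 and -570 bp at BigH1. Of all protein-coding genes with the mark, opposite calls were made at 5.09% for H3K27ac, 4.34% for H3K36me3 and 18.4% for H2BK16ac.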

How the results depend on the processing

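No paired analysis was possible because each group has 1 pooled list, and leaving out a replicate could not be run for the same reason. Over 6 marks, the 2 pairs of a variant gene and a mark called lower became 5, 4 and 6 with 0, 500 and 1000 bp on each side, 1 with peaks of at least 500 bp, 1 at 2-fold, 5 at 4.5 to 5 h alone and 9 at 5.5 to 6 h alone. The 4 called higher became 0, 0, 1 and 2 with 0, 500, 1000 and 5000 bp on each side, 0 at 2-fold, and 10 and 11 at the single times. For the chaperone genes, 12 lower became 7 with 5000 bp, 21 and 40 at the single times, and 16 higher became 9 at 2-fold, 38 and 38 at the single times. The mean difference (HisC minus w1118) reversed to -62.5 bp for H3K4me3 at His3.3A with the gene span alone, to -38.5 bp for H2BK16ac at His3.3B with 500 bp, and to -196.5 and -32 bp for H3K27ac at cid with 0 and 500 bp. The calls higher in HisC thus rested on peaks in the flanks. The call of H3K36me3 at cid was kept in 9 of 11 alternatives, all but 5000 bp and 2-fold, and that of H2AK9ac at BigH1 in 6. The 2 single times are among the 11 alternatives. They keep every called pair by definition, since a call needs both times, so they are no check of it. With the widest peaks of each list kept up to an equal number, 2 pairs were lower and 3 higher. The count of 4 genes lower within the span, chosen after seeing the data, was 3 at 2-fold and 4 in the other alternatives run. Causes were not tested. Depth limits every value in an unknown way, since it is not given.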
